A study of Mus musculus with 16 samples.

Results

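Leptin, its receptor and 5 further adipokines were followed in wounded mouse skin on microarrays. The 7 genes were Lep (leptin), Lepr (leptin receptor), Adipoq (adiponectin), Retn (resistin), Cfd (complement factor D, also called adipsin), Rbp4 (retinol binding protein 4) and Nampt (nicotinamide phosphoribosyltransferase, also called visfatin). Every array probe whose transcript identifier belonged to one of these genes in RefSeq was kept, which gave 11 probes of the 39429 that were not controls, and 7 of the 20832 genes named. Lepr had 4 probes, Retn had 2, and each of the other 5 genes had 1. The single Lep probe, A_52_P374882, was printed as 10 spots on every array and these were averaged.

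The study asked whether estrogen placed on a wound alters its repair in diabetic mice. Female mice received full-thickness wounds on the back, and RNA came from homogenised wound tissue together with the intact skin around it. There were 4 groups at each of the labelled days 7 and 14, with 2 arrays per group and 16 arrays in all. The WT group was C57BL/6J, aged 10 to 12 weeks. All other groups (untreated db/db, and db/db given estrogen or vehicle) were C57BLKS/J homozygous for the Lepr db allele, aged 10 weeks. WT mice did not carry that allele. Estradiol benzoate in sesame oil was applied every day in the db/db + estrogen group, sesame oil alone in the db/db + vehicle group, and neither in the db/db and WT groups. Strain and Lepr allele changed together between WT and every db/db group, so their effects cannot be told apart. The arrays of a group are described as biological replicates, without naming the animals, so p-values measure only the spread between these arrays.

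Adipokines are proteins that fat tissue releases into the blood. Leptin reports the size of the fat stores through its receptor, whose long form signals through JAK2 and STAT3, and the db mutation alters the splicing of the transcript so that the long form is not made. Fat cells also lie in the skin, in a layer beneath the dermis and around the hair follicles, so skin RNA holds adipokine transcripts.

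Levels are given as log2 of the processed intensity minus log2 of the 75th percentile on the same array, so that 0 marks the 75th percentile. That percentile ranged from 1091 to 2548 over the 16 arrays, 70.1% to 79.0% of probes were well above background on an array, and no probe was saturated. The day labels were checked against tabulated fold changes of single genes in untreated db/db against WT. Of these, 24 of 24 lay within 0.1 log2 units of the value on arrays of the other labelled day. Only 1 of 24 lay within that of the same labelled day. The estrogen and vehicle arrays were not part of this check. Arrays are therefore named here by their labels, and no course in time is read from them. The 2 labelled days were scanned separately and lay on different slides. On labelled day 7, slide 1 held replicate 1 and slide 2 held replicate 2 of every group. On labelled day 14, slide 3 held both db/db arrays with replicate 1 of the estrogen and vehicle groups, and slide 4 held both WT arrays with replicate 2 of those groups, so db/db and WT shared no slide. Over all probes tested, the median log2 difference of db/db from WT was -0.05 on labelled day 7 and -0.12 on labelled day 14, and it was 0.04 and 0.07 after quantile normalization.

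Between untreated db/db and WT wounds, Cfd and 2 of the 4 Lepr probes were called lower on both labelled days. Lep was called higher on labelled day 7, and its difference on labelled day 14 (2.29) was not called. A probe was called when its Benjamini-Hochberg adjusted p from limma was under 0.05 and its fold change was over 2. On labelled day 7, 4 of the 10 member probes tested were called, where 9.07% of all probes were: Lep was higher (4.19% of all probes were called higher), and Cfd and 2 Lepr probes were lower (4.88%). On labelled day 14, 3 of 10 were called against 13.6% of all probes, and all 3 were lower (12% of all probes). At the study's thresholds (unadjusted p under 0.05 and fold over 2) 5 of 10 passed on each labelled day, against 14.1% and 18% of all probes. Fitted on only the 4 arrays compared, 0 of the member probes were called on labelled day 7.

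The other db/db groups were also compared with WT, and these comparisons share the WT arrays. In db/db + estrogen wounds, 3 of 10 member probes were called on labelled day 7 (Lep higher, Cfd and Lepr probe A_55_P2177911 lower), where 3.65% of all probes were called, 1.93% higher and 1.72% lower. On labelled day 14 it was Cfd and 2 Lepr probes, all lower, with 8.37% of all probes called and 6.75% lower. In db/db + vehicle wounds, Cfd and the same 2 Lepr probes were called lower on labelled day 7 (5.57% of all probes called, 3.53% lower) and on labelled day 14 (8.81% called, 7.26% lower). The plot of the 3 db/db groups against WT shows all these values with their intervals.

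**Figure D1:**
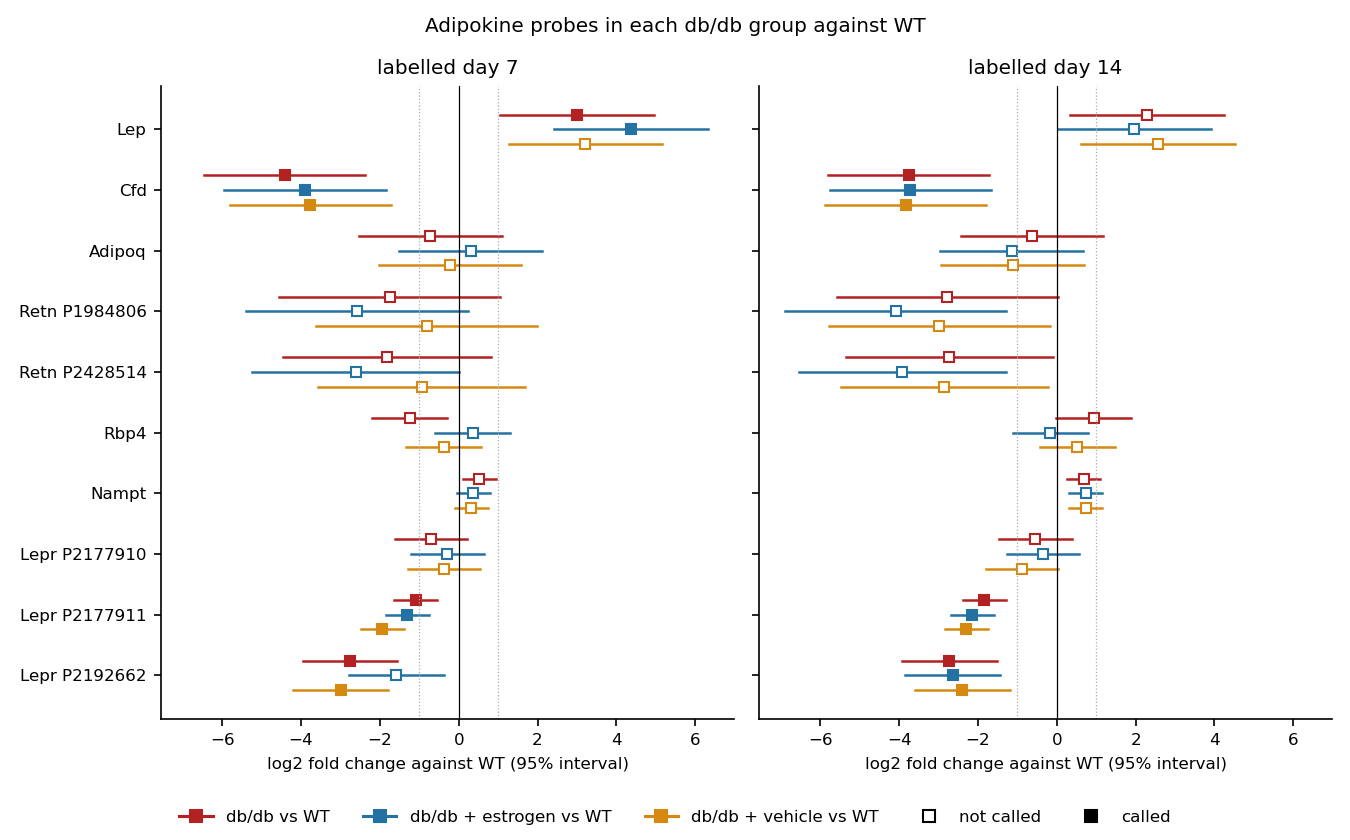
Log2 fold change (horizontal axis, with 95% intervals) of the 10 member probes tested, for untreated, estrogen-treated and vehicle-treated db/db wounds against WT, by labelled day; filled squares were called and dotted lines mark 2-fold. Cfd lay between -4.42 and -3.71 in all 6 comparisons, Lep between 1.97 and 4.37, and the Adipoq intervals all crossed 0.

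The sequences upstream of Lep, Cfd and Adipoq are shown because transcripts of these 3 fat-cell products stood above, below and across the WT range in db/db wounds. They are the 250 bases before each transcription start, plus strand, from RefSeq (GRCm38.p6), at chr6:29059971-29060220, chr10:79890603-79890852 and chr16:23146286-23146535. Capitals mark matches on either strand to the CCAAT box (CCAAT), to a TATA element (TATAA), to TTGCGCAA, a palindrome bound by C/EBP factors that act in fat cell differentiation, or to the E-box CACGTG. Among 32851 promoter sequences of the same length, 33.8% held the CCAAT box, 22.8% the TATA element, 0.164% the C/EBP palindrome and 6.02% the E-box.
Lep: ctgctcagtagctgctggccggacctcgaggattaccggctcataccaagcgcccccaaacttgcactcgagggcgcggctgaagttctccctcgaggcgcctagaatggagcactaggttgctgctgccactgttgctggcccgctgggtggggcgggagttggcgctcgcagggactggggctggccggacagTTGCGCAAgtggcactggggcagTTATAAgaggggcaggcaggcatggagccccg
Cfd: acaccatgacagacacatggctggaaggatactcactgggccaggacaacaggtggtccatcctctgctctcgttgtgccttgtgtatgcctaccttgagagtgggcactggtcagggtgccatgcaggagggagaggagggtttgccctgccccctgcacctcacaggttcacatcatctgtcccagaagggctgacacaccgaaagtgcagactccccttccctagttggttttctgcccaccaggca
Adipoq: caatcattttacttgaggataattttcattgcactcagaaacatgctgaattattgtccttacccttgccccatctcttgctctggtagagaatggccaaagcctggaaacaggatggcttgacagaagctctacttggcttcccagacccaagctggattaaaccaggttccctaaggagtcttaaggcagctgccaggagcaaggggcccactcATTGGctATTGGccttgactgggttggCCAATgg
The Lep sequence held the C/EBP palindrome once and 2 overlapping TATA matches, 1 on each strand. The Adipoq sequence held 3 CCAAT boxes, and in Cfd none of the 4 motifs was found. A match is a description of the letters only, and whether any factor bound there was not measured.

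Lep, the hormone itself, had its lowest levels in WT wounds. The log2 levels of Lep on labelled day 7 were -3.54 and -3.30 in WT, -1.18 and 0.33 in db/db, 0.41 and 1.49 in db/db + estrogen, and -0.15 and -0.27 in db/db + vehicle. For labelled day 14 the values were -3.35 and -4.73 in WT, -1.27 and -2.22 in db/db, -1.33 and -2.80 in db/db + estrogen, and -2.74 and -0.21 in db/db + vehicle. All 4 WT arrays lay below all 12 db/db arrays. The probe was well above background on all 16 arrays, and its 10 spots had an SD of 0.029 to 0.268 log2 units within an array.

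Untreated db/db wounds of labelled day 7 held 7.99 times the Lep level of WT (SE 0.87 and 95% interval 1.05 to 4.95 on the log2 scale, adjusted p = 0.0495 by limma). The level was 20.7-fold that of WT in db/db + estrogen (log2 difference 4.37, interval 2.43 to 6.32, adjusted p = 0.0217). For db/db + vehicle the difference from WT was 3.21 (interval 1.27 to 5.16), with an adjusted p of 0.0510 that missed the threshold. On labelled day 14 the differences from WT were 2.29 for db/db, 1.97 for db/db + estrogen and 2.56 for db/db + vehicle, with adjusted p of 0.0929, 0.170 and 0.0805, and none was called. The change of the db/db difference between the labelled days was -0.71 (SE 1.23, adjusted p = 0.882 by limma), which did not pass the threshold. The call for db/db on labelled day 7 was lost without any 1 of the 4 arrays: the difference was 2.88 without WT replicate 1, 3.12 without WT replicate 2, 3.76 without db/db replicate 1 and 2.24 without db/db replicate 2 (adjusted p 0.0643 to 0.209). It was also lost with the replicate number as a block (adjusted p = 0.0668), and with slide as a fixed (0.0722) or random (0.0603) block. On that day the replicate number and the slide were the same split of the arrays. The call for db/db + estrogen was also lost without any 1 of its 4 arrays, at 3.83 to 4.91 (adjusted p 0.0649 to 0.183). Without vehicle replicate 1, the difference on labelled day 14 became 3.82 and was called (adjusted p = 0.0435).

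Within slide 1 the db/db array exceeded the WT array by 2.36 for Lep, and within slide 2 by 3.64. On slide 4, where both WT arrays of labelled day 14 lay, the estrogen array was 1.23 and the vehicle array 3.82 above the WT mean. In order of group mean, Lep ran from db/db + estrogen on labelled day 7 (0.95) through db/db + vehicle (-0.21) and db/db (-0.42) on that day, db/db + vehicle (-1.48), db/db (-1.75) and db/db + estrogen (-2.07) on labelled day 14, to WT on labelled day 7 (-3.42) and 14 (-4.04). No neighbours in this order differed by more than 1.55 times the SE of a difference between groups.

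**Figure D2:**
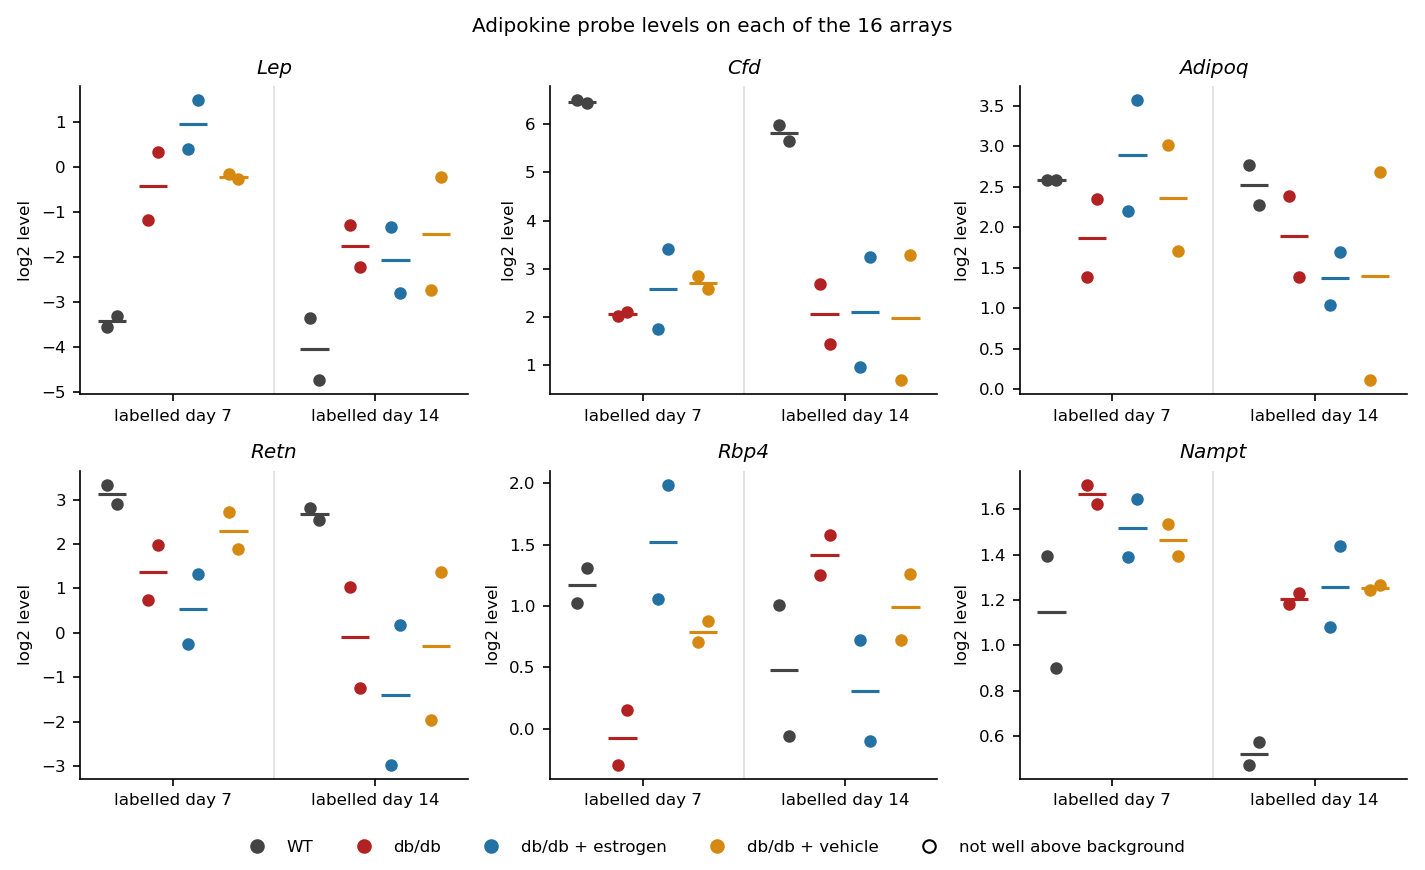
Log2 level (0 is the 75th percentile of the array) of Lep, Cfd, Adipoq, Retn (probe A_55_P1984806), Rbp4 and Nampt on each of the 16 arrays, by labelled day; points are arrays and bars are group means of 2 arrays. All WT points lie below the db/db points for Lep and above them for Cfd, while Adipoq and Rbp4 overlap.

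The 4 Lepr probes differed in level and in which of them were called. Probe A_66_P130517, designed on the transcript of the long signalling form, was not well above background on any of the 16 arrays and was not tested. Its log2 signal lay between -9.75 and -7.93, so this probe gave no reading of the long form in either genotype. Probes A_55_P2177910 and A_55_P2177911 were designed on 1 further transcript and probe A_55_P2192662 on another. Probe sequences were not used here, so where each probe lies in the gene was not examined. The labelled genotype was therefore not checked through the Lepr probes.

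Probe A_55_P2192662 stood higher in WT than in every db/db array. Its log2 levels on labelled day 7 were -3.34 and -2.99 in WT, -4.97 and -6.88 in db/db, -4.84 and -4.66 in db/db + estrogen, and -5.63 and -6.70 in db/db + vehicle. For labelled day 14 the values were -3.25 and -2.70 in WT, -5.85 and -5.54 in db/db, -5.70 and -5.53 in db/db + estrogen, and -5.58 and -5.18 in db/db + vehicle. The second db/db array of labelled day 7 was the only 1 of the 16 on which this probe was not well above background. For untreated db/db the log2 difference from WT was -2.76 on labelled day 7 (SE 0.54, adjusted p = 0.0114), with that array at its dim value, and -1.80 without it. Both db/db arrays of labelled day 14 were well above background and lay, in the mean, 6.60-fold below WT (-2.72, adjusted p = 0.00885). In the vehicle group the differences from WT were -2.99 and -2.40 (adjusted p = 0.0123 and 0.0191). In the estrogen group the difference was called on labelled day 14 (-2.64, adjusted p = 0.0139) but not on labelled day 7 (-1.58, interval -2.78 to -0.38, adjusted p = 0.148).

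Several of these calls for A_55_P2192662 rested on single arrays. The db/db call on labelled day 7 was lost without WT replicate 2 (-2.58, adjusted p = 0.0562), and the difference was -1.55 under normexp background correction. The db/db call of labelled day 14 was lost without db/db replicate 1 (-2.57) or WT replicate 2 (-2.45), and with slide as a block (-2.43, adjusted p = 0.0900). The vehicle call was lost on labelled day 7 without WT replicate 2 (-2.82) or vehicle replicate 2 (-2.46), and on labelled day 14 without WT replicate 2 (-2.13), vehicle replicate 1 (-2.20) or vehicle replicate 2 (-2.60), and with slide as a block (-2.26). The estrogen call on labelled day 14 was lost without WT replicate 2 (-2.36), estrogen replicate 1 (-2.55) or estrogen replicate 2 (-2.73). The direction was the same each time, and within slides 1 and 2 the db/db array differed from the WT array by -1.63 and -3.89.

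Probe A_55_P2177911 was also lower in every db/db group than in WT. Its log2 levels on labelled day 7 were -3.80 and -3.54 in WT, -4.92 and -4.61 in db/db, -4.95 and -5.01 in db/db + estrogen, and -5.21 and -6.01 in db/db + vehicle. Those of labelled day 14 were -3.92 and -3.66 in WT, -5.64 and -5.62 in db/db, -5.96 and -5.91 in db/db + estrogen, and -6.24 and -5.94 in db/db + vehicle. No db/db array reached the lowest WT array. The probe was well above background on all 16 arrays but dim. Its lowest level, -6.24, was on the first vehicle array of labelled day 14. On that array the lowest level of any probe well above background was -7.46. On labelled day 7 the differences from WT were -1.09 for db/db, -1.31 for db/db + estrogen and -1.94 for db/db + vehicle (SE 0.25, adjusted p = 0.0192, 0.0164 and 0.00230). The differences of labelled day 14 were -1.84, -2.14 and -2.30 in the same order (adjusted p = 0.00150, 0.00104 and 0.000698). The 3 calls on labelled day 14 and the vehicle call on labelled day 7 held without each single array and with slide as a block. Under 1 other alternative each, the estrogen and vehicle calls of labelled day 14 were lost (limma adjusted p = 0.103 and 0.0694). So was the vehicle call of labelled day 7 (0.127). The smallest differences were -1.11 for db/db, -1.20 for estrogen and -1.42 for vehicle on labelled day 14, and -1.25 for vehicle on labelled day 7. The db/db call on labelled day 7 was lost without db/db replicate 1 (-0.93) or WT replicate 2 (-0.96), and under normexp background correction (-0.94) or quantile normalization (-0.85), where the fold was under 2. The estrogen call on that day was lost without WT replicate 2 (-1.18), estrogen replicate 1 (-1.34) or estrogen replicate 2 (-1.28), and under normexp (-0.82).

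Probe A_55_P2177910, designed on the same transcript as A_55_P2177911, was not called in any comparison. Its log2 levels were 2.37 and 2.11 in WT, 1.36 and 1.71 in db/db, 2.19 and 1.72 in db/db + estrogen, and 1.70 and 2.03 in db/db + vehicle on labelled day 7. Those of labelled day 14 were 1.84 and 3.40, 2.16 and 1.99, 2.35 and 2.19, and 1.55 and 1.93 in the same order. The second WT array of labelled day 14 was the highest, and the first lay within the range of the db/db arrays. That second array also had the lowest 75th percentile of all arrays, 1091. The difference of db/db from WT was -0.70 (interval -1.62 to 0.22, adjusted p = 0.290) on labelled day 7 and -0.54 (interval -1.47 to 0.38) on labelled day 14. Without the first WT array of labelled day 14 the differences from WT were called in all 3 db/db groups, at -1.33, -1.13 and -1.66 for db/db, estrogen and vehicle, and then rested on 1 WT array. Without the second WT array they were 0.24, 0.43 and -0.10, and none was called. Whether the fold change differed between the Lepr probes was not tested.

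**Figure D3:**
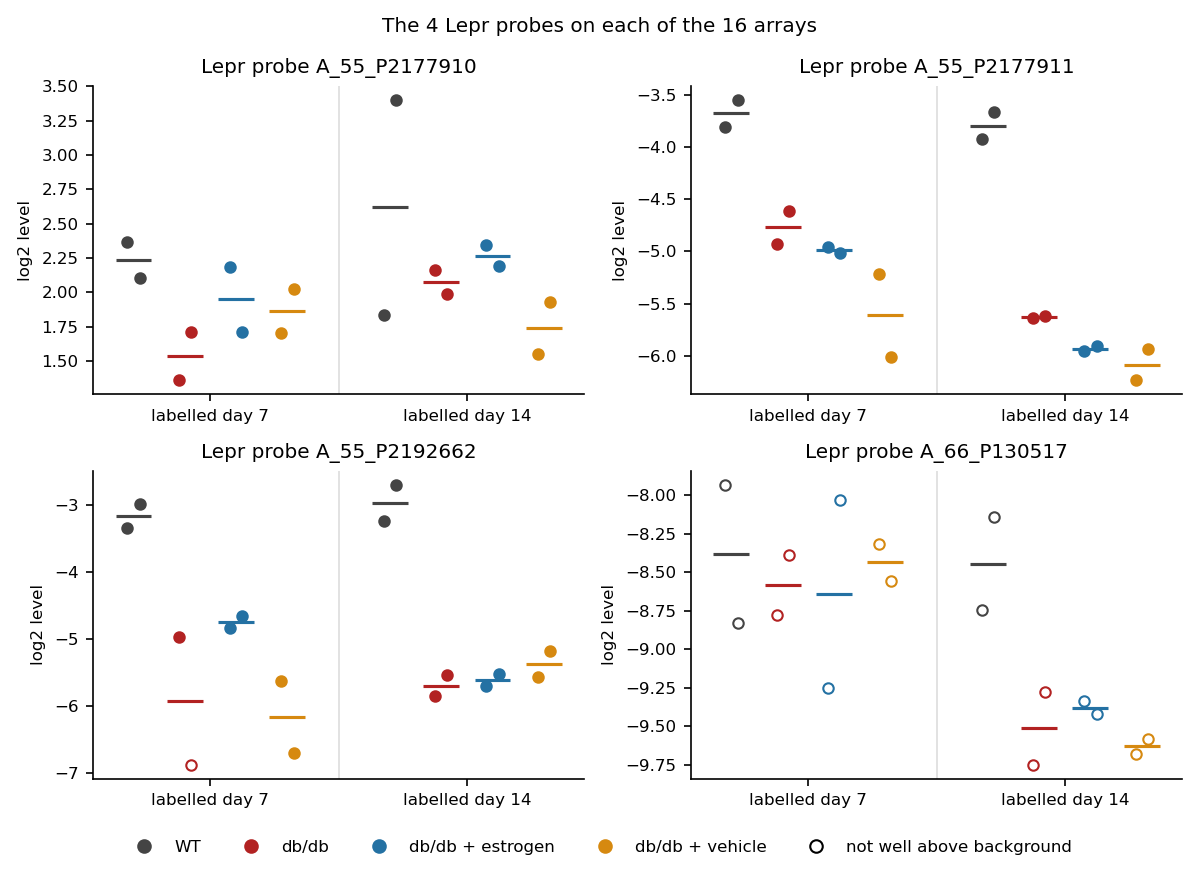
Log2 level (0 is the 75th percentile of the array) of the 4 Lepr probes on each of the 16 arrays, by labelled day; filled points were well above background, open points were not, and bars are group means of 2 arrays. WT lies above all db/db arrays for A_55_P2177911 and A_55_P2192662, the groups overlap for A_55_P2177910, and every point of A_66_P130517 is open.

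Cfd encodes adipsin, a serine protease made largely by fat cells that activates the alternative complement pathway. It was 13.1- to 21.4-fold lower in the db/db groups than in WT. On labelled day 7 the log2 levels were 6.51 and 6.44 in WT, 2.02 and 2.10 in db/db, 1.75 and 3.41 in db/db + estrogen, and 2.84 and 2.58 in db/db + vehicle. For labelled day 14 the values were 5.98 and 5.66 in WT, 2.68 and 1.44 in db/db, 0.96 and 3.25 in db/db + estrogen, and 0.68 and 3.28 in db/db + vehicle. The WT arrays were close to each other, the lowest of them stood 2.25 above the highest db/db array, and the probe was well above background on every array.

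The differences of Cfd from WT on labelled day 7 were -4.42 for db/db (interval -6.47 to -2.37), -3.89 for db/db + estrogen and -3.76 for db/db + vehicle, each with SE 0.92 (adjusted p = 0.0144, 0.0426 and 0.0357). The differences of labelled day 14 were -3.76, -3.71 and -3.84 in the same order (adjusted p = 0.0204, 0.0296 and 0.0244). The db/db call on labelled day 7 was lost without WT replicate 2 (-4.45), db/db replicate 1 (-4.38) or db/db replicate 2 (-4.46), with adjusted p of 0.0560 to 0.0606. The calls of estrogen and vehicle on that day were each lost without any 1 of their 4 arrays, at -4.72 to -3.07 and -3.89 to -3.63. The db/db call of labelled day 14 was lost without any 1 of the 4 arrays, at -4.38 to -3.14 (adjusted p 0.0523 to 0.131). The estrogen and vehicle calls of that day were lost without WT replicate 1, WT replicate 2 or the first treated array (-2.57 for estrogen and -2.54 for vehicle in the last case). No array left out turned the direction.

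Slide moved with the size of the Cfd difference on labelled day 14. Both treated arrays on slide 3 (0.96 and 0.68) were lower than those on slide 4 (3.25 and 3.28), where both WT arrays lay. Within slide 4 the estrogen and vehicle arrays were -2.57 and -2.54 from the WT mean. With slide as a block the db/db difference from WT was -1.31 (SE 0.73, adjusted p = 0.319) and no longer called, whereas estrogen (-2.49, adjusted p = 0.0455) and vehicle (-2.61, adjusted p = 0.0424) were still called. On labelled day 7, where every slide held all 4 groups, db/db lay -4.49 from WT on slide 1 and -4.34 on slide 2, and the blocked adjusted p was 0.00357. In order of group means, Cfd stepped down by 3.11 between WT on labelled day 14 (5.82) and db/db + vehicle on labelled day 7 (2.71), which was 3.38 times the SE of a difference, and neighbours among the 6 db/db groups did not differ beyond their spread.

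Adipoq encodes adiponectin, a hormone secreted almost only by fat cells. Its log2 levels on labelled day 7 were 2.59 and 2.59 in WT, 1.39 and 2.35 in db/db, 2.21 and 3.57 in db/db + estrogen, and 3.01 and 1.71 in db/db + vehicle. Those of labelled day 14 were 2.77 and 2.27, 2.39 and 1.39, 1.04 and 1.70, and 0.12 and 2.69 in the same order. WT and db/db arrays overlapped, and the db/db arrays ranged from 0.12 to 3.57. The difference of db/db from WT was -0.72 (interval -2.52 to 1.09, adjusted p = 0.600) on labelled day 7 and -0.63 (interval -2.44 to 1.18) on labelled day 14. Under a fixed slide block the latter turned to 0.99 and was not called (adjusted p = 0.578). The lower bounds allow a fall of more than 2-fold, so the arrays do not show that Adipoq was alike in the groups.

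Retn encodes resistin, which in mice is secreted by fat cells. Its probes A_55_P1984806 and A_55_P2428514 were designed on 1 transcript, and their log2 levels varied together over the 16 arrays (Pearson r 0.998, a description, since both probes read the same RNA). By A_55_P1984806 the log2 levels on labelled day 7 were 3.33 and 2.90 in WT, 0.74 and 1.98 in db/db, -0.25 and 1.32 in db/db + estrogen, and 2.71 and 1.89 in db/db + vehicle. For labelled day 14 the values were 2.81 and 2.55, 1.03 and -1.23, -2.97 and 0.17, and -1.97 and 1.37 in the same order. All WT arrays were high and close together, while the db/db arrays ranged from well below them to 1 vehicle array inside the WT range. The differences from WT on labelled day 7 were -1.75 for db/db, -2.58 for estrogen and -0.81 for vehicle (SE 1.26). The differences of labelled day 14 were -2.78, -4.08 and -2.98, with adjusted p of 0.147, 0.0633 and 0.139, and no Retn difference was called. By the second probe the differences of labelled day 14 were -2.72, -3.92 and -2.86. Under a fixed slide block the db/db difference of that day turned to 0.46 for A_55_P1984806 and 0.26 for A_55_P2428514, both uncalled, and db/db and WT shared no slide there. Without estrogen replicate 2 of that day the difference for estrogen was called, at -5.65 and -5.41 for the 2 probes, from 1 estrogen array on slide 3.

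Rbp4 carries retinol in blood and is made by liver and fat. Its differences had opposite signs on the 2 labelled days. Its log2 levels on labelled day 7 were 1.02 and 1.31 in WT, -0.29 and 0.15 in db/db, 1.06 and 1.99 in db/db + estrogen, and 0.71 and 0.88 in db/db + vehicle. Those of labelled day 14 were 1.01 and -0.05 in WT, 1.26 and 1.58 in db/db, 0.72 and -0.10 in db/db + estrogen, and 0.72 and 1.26 in db/db + vehicle. The db/db arrays were the lowest of labelled day 7 and among the 3 highest of labelled day 14, together with vehicle replicate 2.

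The difference of Rbp4 between db/db and WT was -1.24 on labelled day 7 (interval -2.19 to -0.29, adjusted p = 0.0834) and 0.94 on labelled day 14 (interval -0.01 to 1.89, adjusted p = 0.148). That of db/db + estrogen from db/db was 1.59 (interval 0.64 to 2.54, adjusted p = 0.0584) and -1.11 (interval -2.06 to -0.16, adjusted p = 0.474). None was called. The change between labelled days was 2.18 for db/db against WT (SE 0.60, unadjusted p = 0.00481, adjusted p = 0.132 by limma) and -2.70 for estrogen against db/db (SE 0.60, unadjusted p = 0.00121, adjusted p = 0.169), so neither passed the adjusted threshold, and 0.693% and 0.0953% of all probes did. Both changes share the db/db arrays. Within slides 1 and 2 the estrogen array exceeded the db/db array by 1.35 and 1.84, and within slide 3 it was -0.69 from the db/db mean, as was the vehicle array. Vehicle against db/db had the same signs, at 0.86 on labelled day 7 and -0.42 on labelled day 14. Within slides 1 and 2 the vehicle array exceeded the db/db array by 1.00 and 0.73. Estrogen differed from vehicle by 0.73 and -0.68 on the 2 labelled days, and none of these group differences was called. Without the first WT array of labelled day 14 the db/db difference from WT was 1.47 and was called (adjusted p = 0.0442).

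Nampt, the enzyme that limits the salvage synthesis of NAD and that is also found outside cells, varied the least of the members, over a 2.36-fold range. Its log2 levels on labelled day 7 were 1.39 and 0.90 in WT, 1.71 and 1.62 in db/db, 1.39 and 1.64 in db/db + estrogen, and 1.54 and 1.39 in db/db + vehicle. Those of labelled day 14 were 0.47 and 0.57, 1.18 and 1.23, 1.08 and 1.44, and 1.24 and 1.26 in the same order. Both WT arrays of labelled day 14 lay below all db/db arrays, and the first WT array of labelled day 7 lay among them. Nampt on labelled day 14 was 1.60-fold higher in db/db, 1.67-fold in db/db + estrogen and 1.66-fold in db/db + vehicle than in WT (log2 differences 0.68, 0.74 and 0.73, SE 0.19, adjusted p = 0.0321, 0.0338 and 0.0325), which is under the 2-fold threshold and was not called. On labelled day 7 the db/db difference was 0.52 (interval 0.10 to 0.94, adjusted p = 0.0987).

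No member probe was called for either treatment. For estrogen against db/db, 0 of 10 were called on labelled day 7, where 4.84% of all probes were, and 0 on labelled day 14, where 0.0991% were. For estrogen against vehicle the counts were 0 of 10 on both labelled days (2.56% of all probes on labelled day 7, and 0 of 28975 probes on labelled day 14, where 285, or 0.984%, passed the study's thresholds). For vehicle against db/db they were also 0 of 10 (0.148% and 0.193%). At the study's thresholds Rbp4 passed for estrogen against db/db on both labelled days, in opposite directions (9.92% and 3.91% of all probes), and Lepr probe A_55_P2192662 for estrogen against vehicle on labelled day 7 (1.41, interval 0.21 to 2.62, adjusted p = 0.175; 8.99%).

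The intervals for the treatments were wide. For Lep on labelled day 7 the difference of estrogen from db/db was 1.37 (interval -0.57 to 3.32) and that of estrogen from vehicle 1.16 (interval -0.79 to 3.11). For Lep the estrogen array exceeded the db/db and vehicle arrays of that day by 1.59 and 0.56 within slide 1, and by 1.15 and 1.76 within slide 2. Neither of these 2 group differences of Lep passed the test (limma adjusted p = 0.443 and 0.485). For Cfd the differences of estrogen from db/db were 0.52 (interval -1.53 to 2.57) and 0.04 (interval -2.01 to 2.09) on the 2 labelled days. For Adipoq they were 1.02 (interval -0.79 to 2.83) and -0.52 (interval -2.33 to 1.29). Without db/db replicate 1, Lepr probe A_55_P2192662 was called higher with estrogen on labelled day 7 (2.13, adjusted p = 0.0284), from the db/db array on which it was not well above background.

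**Figure D4:**
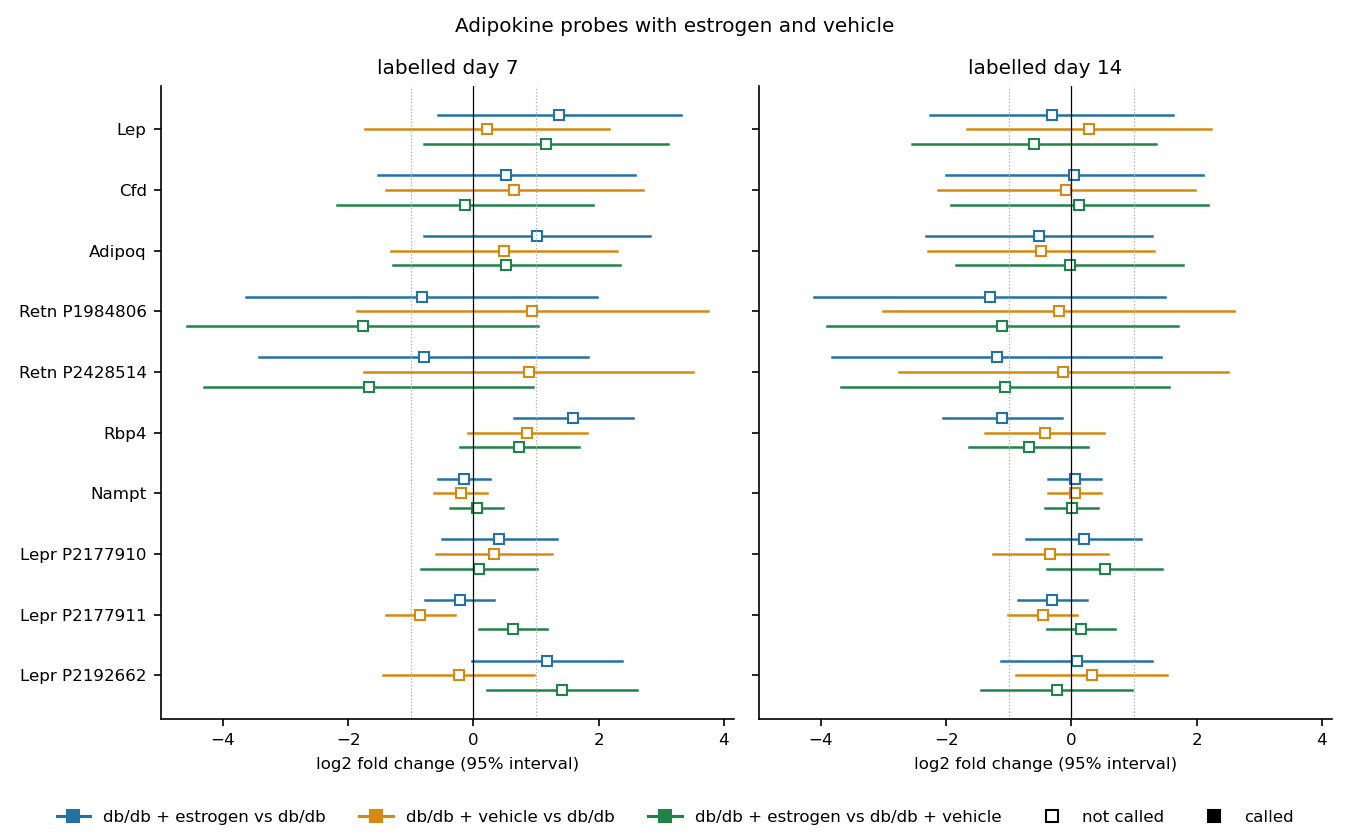
Log2 fold change (horizontal axis, with 95% intervals) of the 10 member probes tested, for db/db + estrogen against db/db, db/db + vehicle against db/db, and db/db + estrogen against db/db + vehicle, by labelled day; open squares were not called and dotted lines mark 2-fold. Every square is open. Rbp4 lies at 1.59 on labelled day 7 and -1.11 on labelled day 14 for estrogen against db/db, and at 0.86 and -0.42 for vehicle against db/db.

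In RNA from whole tissue, fewer fat cells and less transcript per fat cell cannot be told apart. Beside the members, 20 other genes of fat cells were read on the same arrays as a description. How much of their signal came from other cells was not measured, so they do not give the amount of fat. All 20 were well above background on all 16 arrays. The summed signal of the list was 161 to 208 times the 75th percentile on WT arrays and 138 to 515 times on db/db arrays, so the 2 ranges overlapped. Of the 20, 2 were called higher and 1 lower in db/db than in WT on each labelled day, where 9.14% and 8.73% of all genes were called. The list's median log2 fold change was 0.14 and 0.42, beside -0.02 and -0.04 for all genes. Cd36, a fatty acid transporter, was higher by 1.46 and 1.42, and Lpl, the lipase that frees fatty acids from lipoproteins, by 1.24 and 1.53. Adrb3, the adrenergic receptor of fat cells, was lower, with differences of -4.29 and -4.23. Without single arrays, 1 gene was called higher on labelled day 7 and 1 to 3 on labelled day 14, and 0 were called in either direction when only the 4 arrays compared were fitted.

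Set against the mean log2 level of those 20 genes on the same array, a scale chosen after the data were seen, Lep stood at -5.89 to -4.81 in WT and -4.45 to -1.58 in db/db arrays. Cfd stood at 4.50 to 4.71 in WT and -0.69 to 1.61 in db/db. Retn by A_55_P1984806 stood at 1.09 to 1.54 in WT and -4.08 to 0.77 in db/db. None of these 3 overlapped between the genotypes on this scale. The share of all probes without overlap on this scale was not counted. As log2 level alone, Retn by A_55_P1984806 did overlap. The mean log2 level of the 20 genes was itself 1.16 to 1.81 on WT arrays and 0.66 to 3.07 on db/db arrays. Adipoq stood at 0.77 to 1.31 in WT and -0.54 to 1.07 in db/db, and overlapped.

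**Figure D5:**
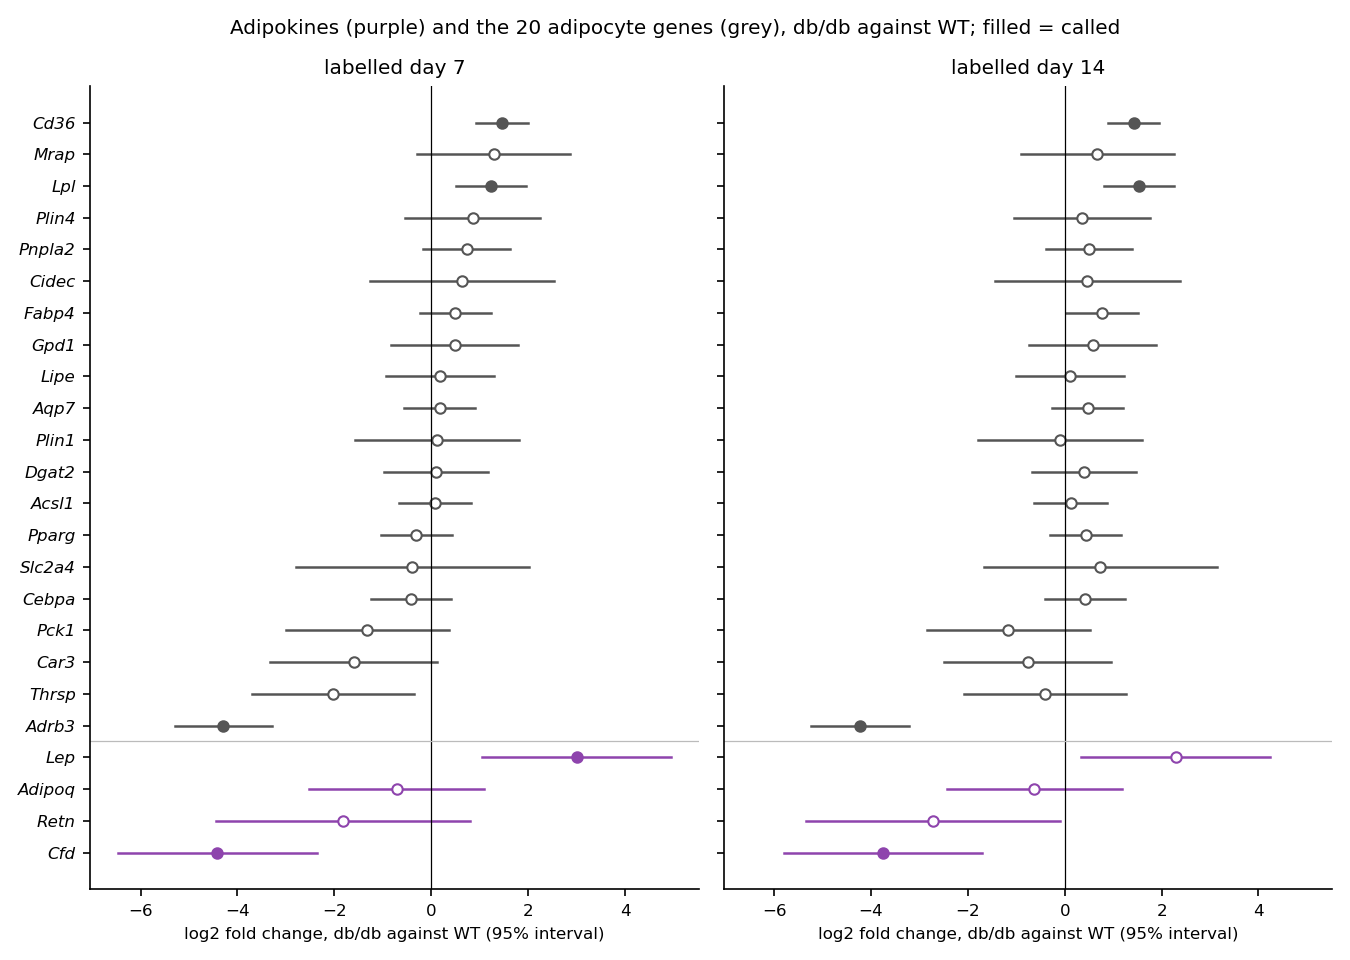
Log2 fold change of db/db against WT (horizontal axis, with 95% intervals) for Cfd, Retn (probe A_55_P2428514), Adipoq and Lep in purple and 20 other genes of fat cells in grey, by labelled day; filled symbols were called. Cfd and Adrb3 lie near -4 on both labelled days, while most genes of the list lie near 0 and Cd36 and Lpl lie above 1.

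Of the fat cell list, 3 genes were higher with estrogen than in db/db on labelled day 7. The list's summed signal, in multiples of the 75th percentile, was 374 to 515 in db/db + estrogen, 180 to 289 in db/db, 246 to 260 in db/db + vehicle and 206 to 208 in WT on that day. Against db/db, 3 of 20 were called higher and 0 lower (5.58% of all genes), with a list median of 1.09 beside 0.04 for all genes. The 3 were Adrb3 (1.93), Lpl (1.84) and Cd36 (1.11), and without single arrays 0 to 2 were called. Against vehicle 1 of 20 was called, Lpl (1.46; 2.98% of all genes). Lep (1.37) and Adipoq (1.02) lay close to the list's median on that day and Cfd (0.52) below it, all uncalled. Among 7 genes of heat-producing fat, Ucp1, the uncoupling protein, was higher in db/db than in WT on labelled day 7 (3.26, interval 1.77 to 4.75). Prdm16 was lower on that day (-1.13), while on labelled day 14 only Dio2 was called (-1.94). In db/db against WT, 9.14% and 8.73% of all genes were called on the 2 labelled days. Without single arrays each of these counts of 1 became 0 to 1. With only the 4 arrays compared, each was 0.

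Leukocyte markers also moved with the groups, and their part in the member values was not tested. In db/db against WT, 9.14% of all genes were called on labelled day 7 and 8.73% on labelled day 14. Of 11 neutrophil genes, 7 were called higher in db/db than in WT on labelled day 7 (list median 4.40) and 2 higher and 1 lower on labelled day 14. Of 9 macrophage genes, 6 and 5 were called higher. Without single arrays, the neutrophil genes called higher became 5 to 7 on labelled day 7 and 0 to 2 on labelled day 14. The macrophage genes called higher became 4 to 8 and 2 to 6. With only the 4 arrays compared, 0 of either list were called higher on labelled day 7. On labelled day 14 it was 1 neutrophil gene and 0 macrophage genes. The summed signal of the neutrophil genes was 351 to 392 in WT and 431 to 504 in db/db on labelled day 7. With estrogen, 10 of the 11 neutrophil genes were lower than in db/db on that day (5.58% of all genes called), and the sum was 51.0 to 65.7. Of the macrophage genes, 3 were called lower and 0 higher with estrogen on that day. Without single arrays these numbers lower became 7 to 10 for neutrophil and 1 to 2 for macrophage genes. With only the 4 arrays compared they were 4 and 1. Of 8 keratinocyte genes, 2 and 3 were called lower in db/db than in WT on the 2 labelled days. Without single arrays these became 1 to 2 and 1 to 4, and with only the 4 arrays compared 0 and 1.

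The leptin signalling list held 19 genes, all tested. In db/db against WT, 2 were called on labelled day 7 and 1 on labelled day 14, which is near the 9.14% and 8.73% of all genes. Socs3, a feedback inhibitor that STAT3 induces, was higher on labelled day 7 (1.48, interval 0.93 to 2.04) and Cish, another inhibitor of cytokine receptors, was lower (-1.33, interval -1.83 to -0.83). Irs2, an adaptor of insulin signalling, was higher on labelled day 14 (1.14), and the other 18 were not called. With estrogen on labelled day 7, Socs3 was lower than in db/db (-2.61) and than in vehicle (-2.03). Jak2, the kinase bound to the receptor, was lower than in db/db (-1.02). Of all genes, 5.58% were called against db/db and 2.98% against vehicle. Without single arrays, 1 to 2 of the list were lower than in db/db. The list's median was 0.17 and 0.13 for db/db against WT on the 2 labelled days, and -0.06 for estrogen against db/db on labelled day 7.

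Receptors and carriers of the other adipokines were read in a list of 14. Stra6l, which takes up retinol from Rbp4, was higher in db/db than in WT on both labelled days (1.84 and 1.90), as was Cap1, a receptor for resistin (1.56 and 1.48). Ccrl2, which binds chemerin, was higher on labelled day 14 (1.61). Of 13 and 14 genes tested on the 2 labelled days, 2 and 3 were called, all higher, where 9.14% and 8.73% of all genes were called, and without single arrays the numbers were 1 to 3 and 1 to 2. With estrogen on labelled day 7, Stra6 (-4.70), the main receptor of Rbp4, Stra6l (-2.61) and Ccrl2 (-2.54) were lower than in db/db (5.58% of all genes called, 1 to 3 of the list without single arrays), and Stra6 was lower than in vehicle (-5.20). The adiponectin receptors Adipor1 and Adipor2 were not called in these comparisons.

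Of 22 further adipokines listed, 21 had a named probe and 19 were tested. In db/db against WT on labelled day 7, 5 were higher and 0 lower, where 9.14% of all genes were called. Among them were Retnlg, a resistin relative made by myeloid cells (9.68), Lcn2, a neutrophil and epithelial lipocalin (3.88), Angptl4, an inhibitor of lipoprotein lipase (2.01), and C1qtnf7 (1.65). The list's median was nevertheless -0.14. Angptl4 alone was called on labelled day 14 (1.03; 8.73% of all genes). With estrogen on labelled day 7, Retnla, a resistin relative made by alternatively activated macrophages, was higher than in db/db (5.48), and Retnlg (-8.29), Lcn2 (-3.64) and Apln, a peptide hormone (-2.33), were lower, where 5.58% of all genes were called. Without single arrays 1 to 4 of the list were lower. For Retn itself the difference of estrogen from db/db on that day was -0.83 by A_55_P1984806 and was not called.

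Of 12 genes of the alternative complement pathway, in which adipsin acts, 4 were higher and 0 lower in db/db than in WT on labelled day 7 (9.14% of all genes called). Among them were Vsig4, a macrophage receptor for C3 fragments (3.67), C5ar1, the C5a receptor (2.06), and Cfb, the substrate of adipsin (1.16), and the list's median was 1.19. Vsig4 (2.59) and C5ar1 (1.31) were also called on labelled day 14 (8.73% of all genes), and this count of 2 became 0 to 3 without single arrays. None of the 12 was called lower than in WT on either labelled day, where Cfd itself was. Of the retinol genes, 1 of 18 tested was called on labelled day 7 (Cyp26b1, which breaks down retinoic acid, 1.62) and 2 of 18 on labelled day 14 (Rbp7, 1.52, and Rarb, 1.34), all higher, which is near the 9.14% and 8.73% of all genes. Without single arrays the counts were 0 to 1 on both days. With estrogen on labelled day 7, Rbp2 (-3.27) and Crabp2 (-2.87) were lower than in vehicle (2.98% of all genes called). Against db/db on that day, 1 of the retinol genes was called lower and 0 higher (5.58% of all genes).

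Of the genes of NAD synthesis and use, 4 of 18 tested were higher in db/db than in WT on labelled day 7, where 9.14% of all genes were called: Bst1 (2.28) and Cd38 (1.87), which break down NAD, Nt5e (1.94), which acts on extracellular nucleotides, and Qprt (1.25), which acts in synthesis from tryptophan. The calls of labelled day 14 were Qprt (1.98), Bst1 (1.57) and Cd38 (1.12), all higher, and Kmo (-1.24), lower (8.73% of all genes). With estrogen on labelled day 7, Nt5e (-2.33), Cd38 (-2.17) and Bst1 (-1.76) were lower than in db/db and Kmo (1.53) was higher (5.58% of all genes called), whereas Nampt differed by -0.15 (interval -0.57 to 0.27). Counts in these lists changed when single arrays were left out: the numbers higher in db/db than in WT on labelled day 7 became 3 to 5 for the further adipokines, 2 to 6 for complement and 2 to 3 for NAD genes, and each was 0 when only the 4 arrays compared were fitted. The NAD genes called on labelled day 14 became 1 to 2 higher and 0 lower, and the leptin signalling list, where Irs2 was the call, gave 0 to 1 higher. The NAD genes called with estrogen on labelled day 7 became 0 to 2 lower and 0 higher.

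All 12 db/db arrays were also set against the 4 WT arrays, a comparison chosen after the data were seen, with an exact two-sided permutation test of the WT label within each labelled day over 784 regroupings. Lep was higher on every db/db array, by a mean of 2.90, and Cfd (-3.90) and Lepr probes A_55_P2192662 (-2.52) and A_55_P2177911 (-1.77) were lower on every db/db array, each with a permutation p = 0.00128, the smallest these regroupings can give. Retn probe A_55_P2428514 also did not overlap, by a gap of 0.018, with a mean difference of -2.48 (permutation p = 0.0051), while A_55_P1984806 overlapped (-2.50, p = 0.0051). The mean differences of the other members were 0.56 for Nampt (exact permutation p = 0.00383), -0.52 for Lepr probe A_55_P2177910 (p = 0.0434), -0.59 for Adipoq (p = 0.223) and 0.00 for Rbp4 (p = 0.985). In all, 5 of the 10 member probes did not overlap (1 higher and 4 lower), where 6.16% of 28164 probes did not (3.55% higher and 2.6% lower). These regroupings do not keep the slides. With the WT label permuted within slides 1, 2 and 4, which held both genotypes (96 regroupings, smallest p 0.0104), the mean within-slide differences were 3.20 for Lep, -3.53 for Cfd, -2.42 for A_55_P2192662, -1.68 for A_55_P2177911 and -1.82 for Retn A_55_P2428514, each with an exact permutation p = 0.0104. They were -1.78 for Retn A_55_P1984806 and 0.54 for Nampt (exact permutation p = 0.0208 for both), and for A_55_P2177910, Adipoq and Rbp4 the exact permutation p was 0.125, 0.562 and 0.635. Both tests treat treated and untreated db/db arrays alike, p-values were computed for 11 probes and are not adjusted, and strain and allele cannot be told apart here either.

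The members' patterns over the 16 arrays were compared with 22111 named probes, by Pearson r of log2 level as a description, since all points share the arrays, their scaling and the 8 groups. The gene most like Lep was Npr3, a natriuretic peptide receptor (r 0.980), followed by Lipf (0.961) and Slc5a7 (0.954). The gene most like Cfd was Cyp2e1, a cytochrome P450 (0.955), that most like Nampt was Nudt9 (0.931), and that most like Adipoq was A530016L24Rik (0.902). For Retn it was Lrif1 (0.885 and 0.883 for the 2 probes) and for Rbp4 Pramel13 (0.779). The Lepr probes had different nearest genes, Snapin (0.940) for A_55_P2192662, Sat2 (0.955) for A_55_P2177911 and Krtap19-4 (0.986) for A_55_P2177910. Among the members, Cfd ran with Retn (0.829 for A_55_P2428514), with Lepr A_55_P2192662 (0.821) and with A_55_P2177911 (0.820), and against Lep (-0.545).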

How the data were processed

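The deposited files were 1-colour Agilent scanner files, 1 per array, and the series' value table. Per the file headers the intensity column used, the processed signal, was background-corrected by the authors with Feature Extraction 11.0.1.1. The deposited value table (34643 probes) holds that signal divided by a per-array factor, a ratio within 0.178% of the 75th percentile, and served as an alternative. Control spots and outlier spots were left out, and spots of 1 probe were averaged. Probes were named through RefSeq (27427 of 39429, 69.6%). Each comparison was a contrast in 1 limma model of the 8 group means over all 16 arrays (limma 3.58.1, R 4.3.3), with no block, on probes well above background throughout 1 or both of the groups compared, and Benjamini-Hochberg adjustment over all of them. Tables were made with Python 3.11.15 and pandas 2.3.3. The scripts were tested on simulated data. Every member probe is named, and list genes (counted by their brightest probe) up to 5 per list, by size of change among those called, apart from a few that are not reported here. The members and lists were chosen with earlier results of these data known. Alternatives were normexp (offset 50), quantile normalization, other filters, the value table, only the arrays compared, slide or replicate number as a block, and leaving out each array. The number of arrays limits the precision.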

Additional observations from a re-analysis of the deposited data

How the results depend on the processing

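Over 247 alternatives of the 19 called member values, 171 kept the call, 76 lost it and 0 turned direction. Without each single array in turn, 4 of the 19 kept the call throughout, all of them Lepr probe A_55_P2177911. Of the uncalled values, 11 became called under an alternative, and 66 of 1313 alternatives changed sign. For db/db against WT on labelled day 7, the 4 member probes called became 2 with only probes well above background on all 4 arrays, 0 with only the 4 arrays compared, and 0 to 3 without single arrays. On labelled day 14, 3 became 1 with slide as a fixed block, 5 at the study's thresholds, and 1 to 4 without single arrays. For estrogen against db/db, 0 became 1 at the study's thresholds on each labelled day, and 0 to 1 without single arrays on labelled day 7. For estrogen against vehicle, 0 became 1 at the study's thresholds on labelled day 7. The cause of these changes was not tested, apart from the fewer arrays in the fit. With the replicate number as a block, 3 member probes were called for each of the 3 db/db groups against WT on each labelled day and 0 in the other 6 comparisons. Same-numbered arrays shared a slide on labelled day 7 and not throughout on labelled day 14, the labels tie the number to nothing else, and the correlations of their deviations lay between -0.37 and 0.33. Of the calls for db/db against WT, Lep on labelled day 7 (adjusted p = 0.0668) lost its call under the block. Slide as a random block had a consensus correlation of -0.091. With 2 arrays per group, and probes such as A_66_P130517 at background on all 16 arrays, differences in the long Lepr form could not be read at this signal.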
